A study of Mus musculus with 12 samples.

Results

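The genes that copy DNA and the genes that mend it were followed in bulk RNA sequencing of mouse skin. The set was defined by gene symbol: the families Mcm, Orc, Cdc6, Cdc45, Cdt1, Gins, the polymerase subunits, Prim, Rfc, Rpa, Pcna, Rrm, Tyms, Fen1, Lig, Fanc, Brca, Rad, Xrcc, Ercc, Msh, Mlh, Exo1, Parp and Dclre. It held 81 of the 7902 genes in the tables (97 of 10720 transcript rows). By their known roles 40 members belonged to replication and 30 to repair, and 11 matched by symbol only, such as Rad21 of cohesin and the antiviral Parp genes. In the RefSeq annotation of assembly GRCm38.p6, 128 protein-coding genes matched the rule. The tables covered 40 of 47 replication genes, 30 of 62 repair genes and 11 of 19 of the others. Within repair they covered 10 of 16 genes of homologous recombination, 5 of 9 of nucleotide excision and 4 of 9 of lesion bypass and checkpoint. Polq, a polymerase of end joining, was counted under homologous recombination. Coverage was 3 of 10 for Fanconi anaemia, 3 of 8 for mismatch repair, 3 of 5 for single-strand break repair and 2 of 5 for end joining.

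The series had 12 skin libraries in 3 groups of 4. M+NSPCC1 was skin with ageing induced by D-galactose and ultraviolet A and B light, together with the grape seed extract NSPCC1. Model had the same induction without the extract, and Ctrl was control skin. No label gives a strain, age, sex, dose, duration or body site. Separate animals are not named for the libraries either, and the spread behind each p-value may be technical.

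Before a cell divides, the origin recognition complex with Cdc6 and Cdt1 loads the Mcm2 to Mcm7 ring onto DNA. Cdc45 and the Gins proteins turn the ring into a helicase, primase and the polymerases copy the strands, and the Pcna clamp, set by the Rfc loader, holds the polymerases in place. Repair uses separate machines: homologous recombination and the Fanconi anaemia pathway mend breaks and crosslinks with a sister copy, mismatch repair corrects copying errors, nucleotide excision removes the bulky lesions that ultraviolet light leaves, and end joining and the Parp and Xrcc1 proteins act on breaks at any time. Replication genes and many recombination genes are transcribed mainly in cycling cells, where E2F factors bind their promoters. In skin most cycling cells are in the basal epidermis and in the matrix of growing hair follicles.

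The promoters of 7 members are shown, 6 higher than in Ctrl and 1, Parp3, lower, because E2F motifs were more frequent among replication genes than elsewhere. Each line gives 150 bases before and 20 from the transcription start, in the direction of transcription, from RefSeq (GRCm38.p6). Capitals mark a match to TTTCCCGC, TTTCGCGC, TTTGGCGC or TTTGCCGC on either strand; the first 2 matches in Mcm6 overlap. The first 5 belong to licensing, helicase and loader genes with a match, and the last 2, Rrm2 and Parp3, had no such letters in this window. Counted from the start, the matches begin at -149 in Mcm5, at -110, -106 and -47 in Mcm6, at -27 in Orc1, at -41 in Gins3 and at -10 and 1 in Rfc3.
Mcm5 (chr8:75109359-75109528, plus strand): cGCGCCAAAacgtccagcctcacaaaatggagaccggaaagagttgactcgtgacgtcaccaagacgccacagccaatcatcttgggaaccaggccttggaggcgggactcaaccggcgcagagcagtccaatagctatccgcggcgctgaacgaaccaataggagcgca
Mcm6 (chr1:128359686-128359855, minus strand): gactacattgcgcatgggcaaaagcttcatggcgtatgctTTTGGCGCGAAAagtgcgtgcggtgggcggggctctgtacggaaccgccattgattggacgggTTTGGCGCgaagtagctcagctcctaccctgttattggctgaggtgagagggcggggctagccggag
Orc1 (chr4:108579304-108579473, plus strand): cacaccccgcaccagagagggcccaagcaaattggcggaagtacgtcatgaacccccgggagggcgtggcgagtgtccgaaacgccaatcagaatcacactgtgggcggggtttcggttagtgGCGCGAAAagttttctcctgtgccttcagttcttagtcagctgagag
Gins3 (chr8:95633409-95633578, plus strand): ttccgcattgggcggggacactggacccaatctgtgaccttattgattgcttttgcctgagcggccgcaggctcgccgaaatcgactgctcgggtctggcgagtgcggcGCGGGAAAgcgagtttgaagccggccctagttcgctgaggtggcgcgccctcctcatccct
Rfc3 (chr5:151651189-151651358, minus strand): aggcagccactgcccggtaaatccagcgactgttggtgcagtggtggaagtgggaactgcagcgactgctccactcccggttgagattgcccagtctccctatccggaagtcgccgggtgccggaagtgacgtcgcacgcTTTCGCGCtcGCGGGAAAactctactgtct
Rrm2 (chr12:24708104-24708273, plus strand): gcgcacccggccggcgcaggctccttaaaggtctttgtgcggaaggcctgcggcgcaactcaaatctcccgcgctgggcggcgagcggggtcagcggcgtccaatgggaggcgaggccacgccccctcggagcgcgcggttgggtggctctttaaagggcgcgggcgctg
Parp3 (chr9:106476930-106477099, minus strand): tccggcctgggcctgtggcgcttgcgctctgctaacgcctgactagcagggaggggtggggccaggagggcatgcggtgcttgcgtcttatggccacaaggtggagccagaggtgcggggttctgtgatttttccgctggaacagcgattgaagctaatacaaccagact

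Promoter windows of 300 bases (250 before and 50 after the start) were matched for 59 members with 68 promoters. An E2F motif lay in 14 of 39 replication promoters (35.9%) and in 3 of 24 repair promoters (12.5%), those of Brca2, Mcm8 and Msh6. The share was 3.59% among promoters of all genes tested and 2.26% among all 32851 promoters. Within replication it was 8 of 15 for licensing and helicase, 4 of 9 for polymerases and primase and 2 of 12 for clamp, loader and Okazaki fragment genes. The CCAAT box, searched as CCAAT on both strands, was found in 59.0% of replication, 62.5% of repair promoters, 37.2% of promoters of all genes tested and 37.4% of all promoters. The cell cycle element CHR, searched as TTTGAA on both strands, was found in 12.8% of replication and 8.33% of repair promoters, 13.1% of promoters of all genes tested and 17.9% of all promoters. These matches describe letters in a window and are not binding sites.

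**Figure D1:**
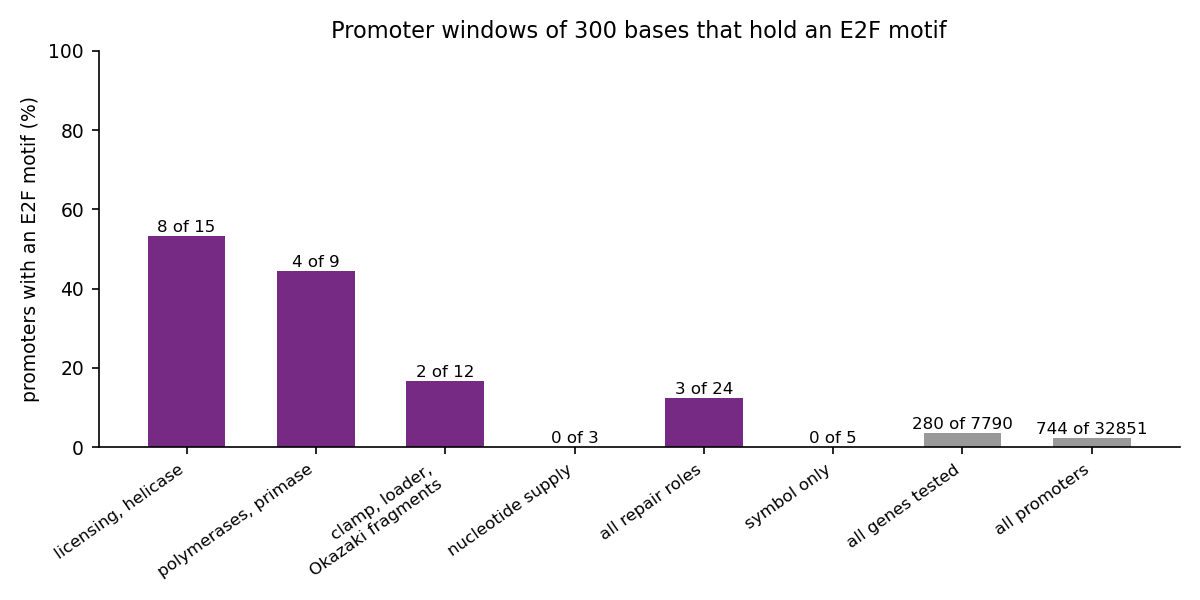
Share of promoter windows of 300 bases that hold an E2F motif, in percent (y axis), by role of the members (purple) and in all tested genes and all promoters (grey); numbers above the bars are promoters with the motif of all promoters in the set. Licensing and helicase promoters reach 53.3%, against 3.59% for all genes tested.

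The genes in the tables, which are part of each library, held 9717338 to 10952623 estimated counts. Levels are given as CPM, counts scaled by TMM to a common library total, or as FPKM, which is also divided by transcript length. Of the 81 members 79 passed the filter on low counts; Dclre1a and Parp9 did not. The tables mostly hold transcripts that differ from Ctrl: 90.5% of the 7638 genes tested passed in Model against Ctrl (49.1% higher, 41.4% lower), and their median log2 fold change was 0.25 (0.08 with DESeq2's size factors, 0.43 with whole-library depth). Exons of 27 members overlap an exon of another gene on the opposite strand (among them Parp3, Fanca, Brca2, Dclre1c, Rrm2b, Gins2, Pole, Fen1, Lig1, Rfc2 and Msh6) and those of 5 overlap one on the same strand (Mcm7, Pole2, Rad54b, Parp10 and Parp14). No source used here says whether counting used strand, so these values are less certain. Library Model 03 stood apart. It was the lowest Model library for 36 of 40 replication members (90.0%, median ratio 0.734 to the mean of the other 3), for 21 of 29 repair members (72.4%, ratio 0.815) and for 39.4% of all genes (ratio 0.994).

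Replication genes were higher in Model than in Ctrl skin almost without exception. Of the 40 members tested, 39 were higher and 1 was lower by edgeR's quasi-likelihood test (Benjamini-Hochberg adjusted p under 0.05), with a median log2 fold change of 1.16. Repair was mixed: of 29 tested, 25 were higher, 3 were lower, among them Parp3 and Dclre1c, and 1, Brca2, did not pass, with a median of 0.87. Without Model 03 the medians were 1.25 and 0.93, with the same counts of 39 and 1, and of 25 and 3. In M+NSPCC1 against Ctrl, where 93.2% of all genes passed (50.1% higher, 43.1% lower), replication again had 39 higher and 1 lower with a median of 1.34, and repair 26 higher and 3 lower with a median of 0.94. In Model against Ctrl the libraries did not overlap for 37 of 40 replication and 26 of 30 repair members, against 83.1% of all genes (43.2% higher, 39.8% lower); in M+NSPCC1 against Ctrl this held for 39 of 40 and 28 of 30, against 90.0% (47.4% higher, 42.5% lower). Rad54l and Pold2, which had no count in Ctrl, lie above the medians even at their lower bound, so their exact values cannot move the medians. The shares higher stand above the background in both branches, but the comparisons share the Ctrl libraries and are not independent of each other. In bulk skin, fewer cells of a type and less RNA per cell cannot be told apart.

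**Figure D2:**
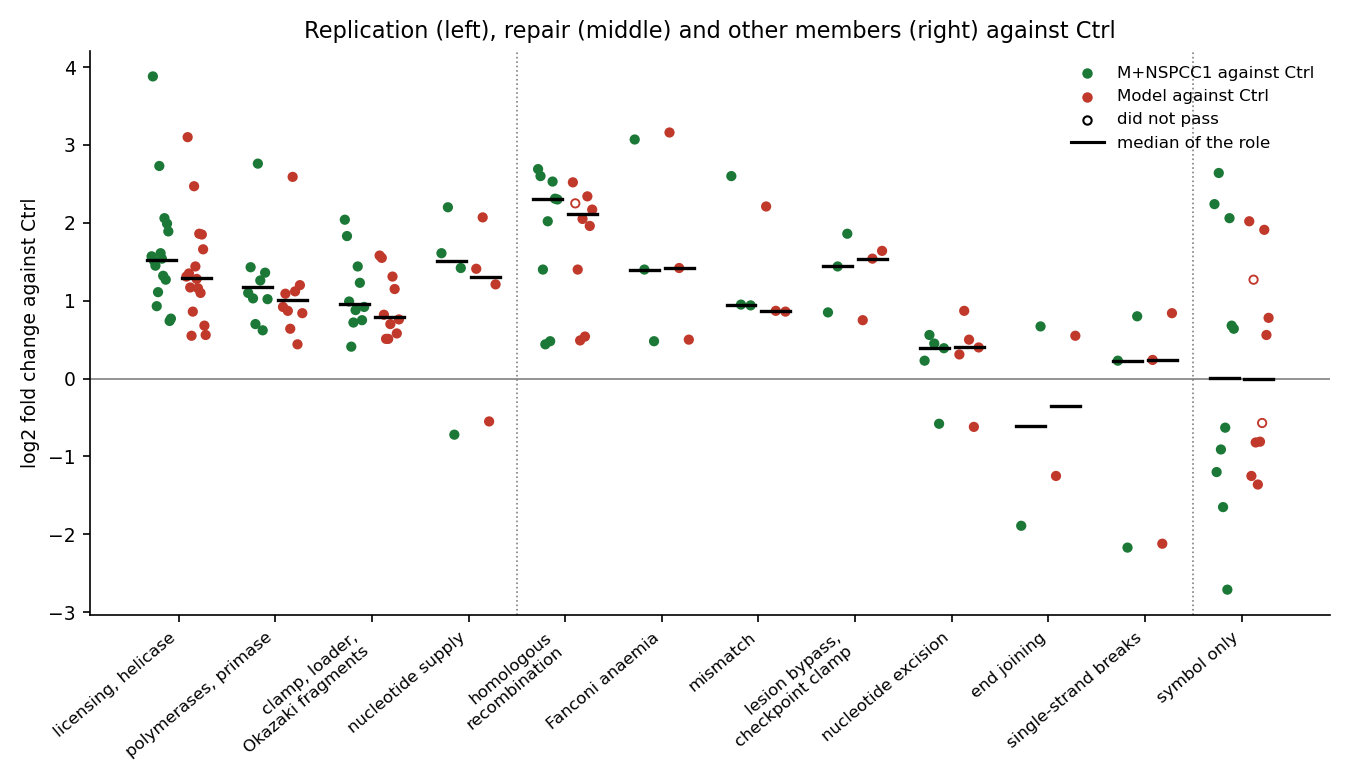
Log2 fold change against Ctrl (y axis) of each tested member by role, for M+NSPCC1 (green) and Model (red); open points did not pass, and short black lines are role medians over all tested members. Rad54l and Pold2, at 0 in every Ctrl library, are not drawn. Homologous recombination has the highest medians (2.31 for M+NSPCC1, 2.11 for Model), and nucleotide excision lies at 0.39 and 0.40.

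Origin licensing and the helicase were the replication group with the most members. All 16 were higher in Model than in Ctrl (median log2 fold change 1.3), against 49.1% of all genes tested. Mcm7, a ring subunit with the highest FPKM of the group, had 167, 178, 190 and 206 CPM in the 4 M+NSPCC1 libraries, 169, 185, 125 and 192 in Model and 48.0, 49.8, 46.0 and 42.7 in Ctrl. The Ctrl libraries lay below every other library, and Model 03 was the lowest of the rest. The log2 fold change in Model against Ctrl was 1.85 (SE 0.13, adjusted p = 2.62e-07 by edgeR). Mcm5, whose promoter is printed above, had 133, 132, 142 and 148 CPM in M+NSPCC1, 110, 139, 96.0 and 139 in Model and 28.1, 37.6, 32.4 and 34.9 in Ctrl, again with no overlap with Ctrl (log2 fold change 1.86, SE 0.13, adjusted p = 2.96e-07).

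The 6 ring subunits are used in equal numbers in the complex. Summed over Mcm2 to Mcm7, FPKM was 197 ± 14.5 in M+NSPCC1, 170 ± 31.7 in Model and 54.8 ± 4.74 in Ctrl (SD, n = 4 each). The highest subunit exceeded the lowest by 2.32 times in M+NSPCC1 (Mcm7 against Mcm4, mean FPKM), 2.33 in Model (the same pair) and 2.76 in Ctrl (Mcm6 against Mcm5). Their log2 fold changes in Model against Ctrl ran from 1.10 for Mcm6 to 1.86 for Mcm5, with Mcm2 at 1.44, Mcm3 at 1.28 and Mcm4 at 1.16. Mcm7 and Mcm6 each had a pair of transcript rows that rose unequally: 0.86 (SE 0.31) and 2.0 (SE 0.13) for Mcm7, and 0.59 (SE 0.19) and 1.20 (SE 0.12) for Mcm6. In all 14 members with 2 rows tested, both rows had the same sign in Model against Ctrl. For 2 of them, Cdc45 and Fance, the rows held identical counts, so their signs could not differ.

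Other licensing and helicase factors rose by more or by less than the ring. Mcm10, which helps to activate the helicase, averaged 33.1 ± 1.94 CPM in M+NSPCC1, 27.5 ± 6.32 in Model and 4.96 ± 0.931 in Ctrl (log2 fold change 2.47 in Model against Ctrl, SE 0.20). Orc1, the origin recognition subunit that cycles with cell division, rose by 1.66 (SE 0.28), while Orc2 rose by 0.68 (SE 0.12) and Orc6 by 0.56 (SE 0.11). The loader Cdt1 rose by 1.35 (SE 0.14), Cdc45 by 1.31 (SE 0.22), Gins1 by 1.17 (SE 0.22) and Gins3 by 0.86 (SE 0.19). Gins2, a helicase subunit and the smallest rise of the group at 0.55 (SE 0.13), had 24.2, 27.1, 24.96 and 27.8 CPM in M+NSPCC1, 18.6, 20.7, 17.9 and 23.0 in Model and 15.4, 11.3, 14.7 and 13.4 in Ctrl. Gins2 was the one replication member in which no groups overlapped.

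Cdc6, the loading factor with the largest fitted change of the group, rests on few counts. It had 3.02, 6.77, 4.83 and 8.43 CPM in M+NSPCC1, 6.63, 2.78, 0 and 4.01 in Model and 0, 0, 0 and 1.51 in Ctrl. Model 03 overlapped Ctrl at 0. Its call in Model against Ctrl (log2 fold change 3.10, SE 1.31, adjusted p = 0.0407 by edgeR) was lost in 10 of the 12 fits that left out 1 library, with adjusted p between 0.0502 and 0.106, and without Ctrl 04 no Ctrl library had a count.

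All 10 polymerase and primase subunits were higher in Model than in Ctrl (median 1.01), against 49.1% of all genes tested. Pole3, a small histone-fold subunit of polymerase epsilon with the highest FPKM of the group, had the smallest rise: 24.2, 23.4, 23.6 and 27.0 CPM in M+NSPCC1, 18.9, 21.6, 19.1 and 26.9 in Model and 14.8, 14.7, 18.2 and 15.9 in Ctrl (log2 fold change 0.44, SE 0.14, adjusted p = 0.00964). The lowest Model library lay only just above the highest Ctrl library, and scaling by DESeq2's size factors ended the call (0.27, adjusted p = 0.0828; 0.000276 to 0.0828 over the alternatives tried). Pole, the catalytic subunit of the same enzyme, had 45.0, 39.8, 54.0 and 44.9 CPM in M+NSPCC1, 35.9, 47.8, 27.1 and 52.2 in Model and 9.84, 5.41, 0 and 11.9 in Ctrl (log2 fold change 2.59, SE 0.66). Its Ctrl libraries were uneven, with Ctrl 03 at 0.

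Both primase subunits rose. Prim1 rose by 1.20 (SE 0.15) and Prim2 by 0.84 (SE 0.12) in Model against Ctrl, and their polymerase alpha partners Pola1 and Pola2 by 0.92 (SE 0.13) and 1.09 (SE 0.26). Pold2, an accessory subunit of polymerase delta, had 1.47, 0.927, 1.27 and 2.31 CPM in M+NSPCC1, 0, 1.39, 0.992 and 0 in Model and 0 in every Ctrl library. It was at least 18.3-fold higher in M+NSPCC1 and at least 7.37-fold higher in Model than the limit that 3 counts over the Ctrl group set. Pold2 had 1 listed transcript row, with counts that were not whole and a mean FPKM of 0.318. Its values describe that row, which may not stand for the whole gene. In Model the call (adjusted p = 0.0206) was lost without Model 02 (adjusted p = 0.0504). The catalytic Pold1 and the accessory Pold3 rose by 0.87 (SE 0.15) and 0.64 (SE 0.11), and Pole2, a subunit of polymerase epsilon, by 1.12 (SE 0.16).

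The sliding clamp was the most abundant replication member by FPKM. Pcna, which ties polymerases and many repair enzymes to DNA, had 298, 321, 362 and 347 CPM in M+NSPCC1, 313, 325, 248 and 295 in Model and 165, 171, 172 and 162 in Ctrl. The Ctrl libraries were nearly equal and all lower (log2 fold change 0.82, SE 0.09, adjusted p = 7.93e-06 in Model against Ctrl). By FPKM Pcna was 213 ± 22.3 in M+NSPCC1, 185 ± 24.7 in Model and 92.7 ± 1.56 in Ctrl (SD, n = 4 each), against a mean of 55.8 over all libraries for the next replication member, the single-strand binding subunit Rpa3.

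All 10 clamp, loader, single-strand binding and Okazaki fragment genes rose in Model against Ctrl, with a median of 0.79. The share higher was 49.1% over all genes tested. Lig1, the ligase that seals Okazaki fragments, had 95.6, 93.1, 101 and 118 CPM in M+NSPCC1, 81.4, 92.4, 62.1 and 97.6 in Model and 30.8, 28.6, 28.7 and 26.2 in Ctrl (log2 fold change 1.55, SE 0.14). The 5 Rfc subunits rose unequally, by 1.31 (SE 0.15) for Rfc4 and 1.15 (SE 0.12) for Rfc5 but 0.70 (SE 0.13) for Rfc3, 0.51 (SE 0.08) for Rfc2 and 0.51 (SE 0.16) for the large subunit Rfc1. The single-strand binding subunits Rpa2 and Rpa3 rose by 0.58 (SE 0.11) and 0.76 (SE 0.13). Rfc1 overlapped Ctrl in both groups, with 33.6, 40.7, 31.0 and 43.0 CPM in M+NSPCC1, 35.7, 43.7, 31.4 and 48.1 in Model and 26.9, 28.6, 32.4 and 23.8 in Ctrl. Its call did not survive DESeq2's size factors in either comparison (adjusted p = 0.149 in M+NSPCC1 and 0.0635 in Model against Ctrl).

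Fen1, the flap nuclease that trims Okazaki fragments, had 29.0, 30.0, 55.3 and 44.4 CPM in M+NSPCC1, 29.2, 35.5, 18.2 and 32.1 in Model and 10.51, 4.86, 11.5 and 11.6 in Ctrl. Every Ctrl library was lower (log2 fold change 1.58 in Model against Ctrl, SE 0.31). The high value of M+NSPCC1 03 came from a second transcript row, which held an estimated count of 334 there, 2.85 in Model 04 and 0 in the other 10 libraries.

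The nucleotide supply genes gave the one replication member that fell. Rrm2, the small subunit of ribonucleotide reductase in dividing cells, whose promoter is printed above without E2F letters, had 116, 116, 126 and 133 CPM in M+NSPCC1, 114, 118, 96.7 and 122 in Model and 26.9, 24.2, 33.3 and 22.8 in Ctrl (log2 fold change 2.07, SE 0.12, adjusted p = 8.99e-08 in Model against Ctrl). Rrm2b, the p53-inducible small subunit that supplies nucleotides for repair outside S phase, had 23.8, 29.0, 26.05 and 29.5 CPM in M+NSPCC1, 31.6, 27.7, 31.4 and 30.7 in Model and 39.9, 51.7, 43.7 and 42.8 in Ctrl (-0.55, SE 0.11, adjusted p = 0.0005). The paralogs moved in opposite directions without overlap with Ctrl. By FPKM Rrm2 exceeded Rrm2b 10.2 ± 0.867 times in M+NSPCC1, 8.41 ± 1.16 times in Model and 1.37 ± 0.296 times in Ctrl (SD, n = 4 each). Rrm1, the large subunit that pairs with either, rose by 1.41 (SE 0.13) and Tyms, the thymidylate synthase, by 1.21 (SE 0.12). Trp53 itself, outside the set, rose by 1.10 (SE 0.09).

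**Figure D3:**
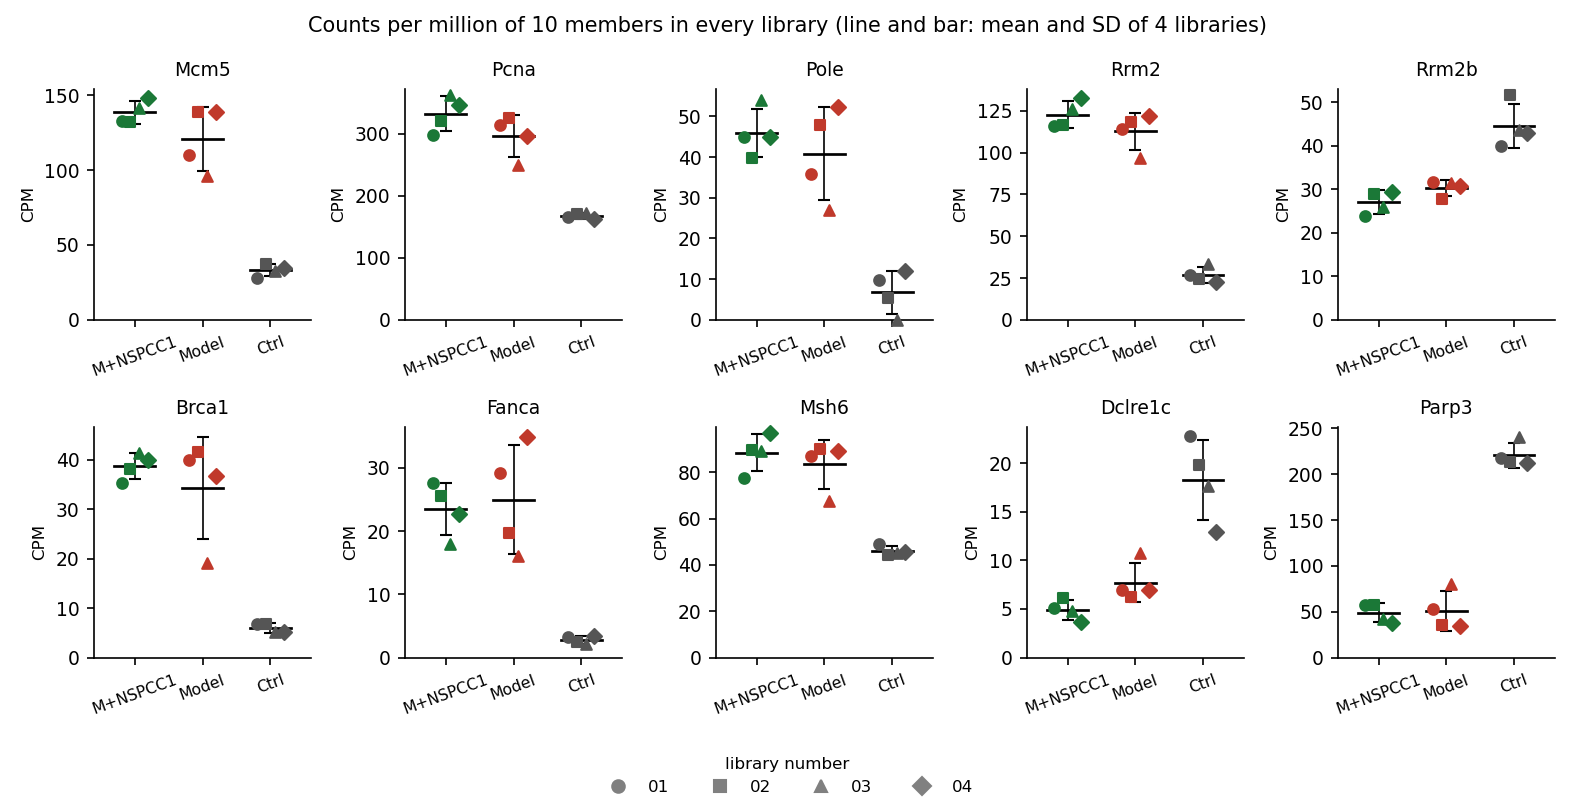
CPM (y axes, each from 0) of 10 members in every library, M+NSPCC1 (green), Model (red) and Ctrl (grey) from left to right; symbols mark library numbers, lines the mean and bars the SD of 4 libraries. Rrm2b, Dclre1c and Parp3 are highest in Ctrl, and the other 7 genes are lowest there.

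Homologous recombination had the highest median change of all roles. Of its 10 members 9 were higher in Model than in Ctrl and Brca2 did not pass, with a median log2 fold change of 2.11. In M+NSPCC1 against Ctrl all 10 passed as higher (median 2.31). Over all genes tested 49.1% were higher in Model and 50.1% in M+NSPCC1, where 93.2% passed in either direction. Brca1, a tumour suppressor that starts this pathway, had 35.4, 38.2, 41.4 and 39.9 CPM in M+NSPCC1, 39.96, 41.5, 19.1 and 36.7 in Model and 6.86, 6.85, 5.15 and 5.07 in Ctrl (2.52, SE 0.23, adjusted p = 1.87e-06 in Model against Ctrl). Model 03 lay between Ctrl and the other libraries. Summed FPKM of the 10 members was 49.0 ± 4.68 in M+NSPCC1, 43.7 ± 8.72 in Model and 13.2 ± 0.456 in Ctrl (SD, n = 4 each).

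Not every recombination gene moved so far. Rad50, part of the complex that senses broken ends, rose by 0.54 (SE 0.09). Mcm9, a helicase of recombination rather than of replication, had 17.4, 19.5, 20.9 and 20.1 CPM in M+NSPCC1, 19.6, 20.6, 17.7 and 22.7 in Model and 11.7, 14.0, 15.03 and 16.5 in Ctrl (log2 fold change 0.49, SE 0.14). Mcm8, its partner, rose by 1.4 (SE 0.19). Rad51ap1 and Rad54b rose by 1.96 (SE 0.20) and 2.17 (SE 0.28). Polq, a polymerase of end joining that was counted here with recombination, rose by 2.05 (SE 0.49). The recombination medians and sums include Polq.

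For Brca2 and Rad54l the libraries of a group were uneven. Brca2, a tumour suppressor of the same pathway, had 14.2, 18.4, 16.5 and 7.64 CPM in M+NSPCC1, 8.996, 0.0927, 14.4 and 21.2 in Model and 3.87, 3.98, 0 and 1.51 in Ctrl; it passed in Model against Ctrl only without Model 02 among the fits that left out 1 library (log2 fold change 2.70, adjusted p = 0.00604, against 0.0589 with all libraries). It also passed with whole-library depth (0.0423) and with limma on log2(FPKM + 1) (0.0366). In M+NSPCC1 against Ctrl its call (adjusted p = 0.0339) was lost in 5 of these 12 fits, without M+NSPCC1 01, 02 or 03 or Ctrl 03 or 04 (adjusted p between 0.0541 and 0.0774). Rad54l, a motor protein of strand exchange, had 4.22, 4.45, 4.28 and 1.42 CPM in M+NSPCC1, 10.3, 0, 0 and 9.41 in Model and 0 in every Ctrl library. It was at least 43.6-fold higher in M+NSPCC1 and at least 60.9-fold higher in Model than the limit of 3 counts over the Ctrl group, yet Model 02 and Model 03 were at 0 as well. Rad54l had 1 listed transcript row, with counts that were not whole. Its values describe that row, which may not stand for the whole gene.

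All 3 Fanconi anaemia members, of 10 such genes in the annotation, were higher in Model than in Ctrl, against 49.1% of all genes tested. Fanca, a subunit of the core complex that marks crosslinks, had 27.6, 25.5, 18.04 and 22.7 CPM in M+NSPCC1, 29.2, 19.6, 16.1 and 34.9 in Model and 3.21, 2.43, 2.15 and 3.35 in Ctrl, the largest change against Ctrl among repair members with counts in every Ctrl library (log2 fold change 3.16, SE 0.28, adjusted p = 1.36e-06 in Model). Fancd2, the protein the core complex modifies, rose by 1.42 (SE 0.25). Fance, with the highest FPKM of the group, rose by 0.50 (SE 0.12), with 22.1, 26.6, 26.4 and 28.4 CPM in M+NSPCC1, 25.8, 28.3, 22.6 and 28.3 in Model and 17.1, 19.8, 19.2 and 18.2 in Ctrl.

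All 3 mismatch repair members, of 8 such genes in the annotation, were higher too, against 49.1% of all genes tested. Msh6, which takes part in recognising mismatches, had 77.6, 89.7, 89.3 and 96.9 CPM in M+NSPCC1, 87.1, 89.9, 67.5 and 89.1 in Model and 48.9, 44.4, 44.98 and 45.7 in Ctrl (log2 fold change 0.86, SE 0.10, adjusted p = 1.33e-05 in Model against Ctrl). Exo1, the nuclease of this pathway that also serves recombination, rose by 2.21 (SE 0.41), with 15.8, 17.2, 18.1 and 22.1 CPM in M+NSPCC1, 10.98, 17.8, 6.35 and 20.9 in Model and 1.44, 2.21, 4.19 and 4.21 in Ctrl. For both genes every M+NSPCC1 and Model library exceeded every Ctrl library.

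Among lesion bypass and checkpoint genes, Rad18, the ligase that marks Pcna at stalled forks, rose by 1.64 (SE 0.18), with 21.5, 21.0, 24.2 and 26.6 CPM in M+NSPCC1, 21.3, 22.7, 17.1 and 18.8 in Model and 5.97, 4.64, 8.27 and 6.69 in Ctrl. Polh, the polymerase that copies past ultraviolet-induced dimers, had 49.0, 51.8, 50.2 and 49.2 CPM in M+NSPCC1, 45.4, 53.4, 39.8 and 48.2 in Model and 23.4, 27.7, 29.0 and 31.2 in Ctrl (log2 fold change 0.75, SE 0.11, adjusted p = 6.7e-05 in Model against Ctrl). Its groups did not overlap with Ctrl. Rad17, the loader of the checkpoint clamp, rose by 1.54 (SE 0.39) at a low level of 4.02 ± 1.76 CPM in M+NSPCC1, 4.29 ± 1.47 in Model and 1.47 ± 0.255 in Ctrl. Dclre1a, a crosslink nuclease, was not tested: it was at 0 in all M+NSPCC1 libraries, had 5.93 and 3.17 CPM in Model 02 and 04 and 15.6 in Ctrl 04, and was at 0 in the others.

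Nucleotide excision, the pathway for ultraviolet damage, had a lower median change than repair as a whole. Of 5 members 4 were higher in Model against Ctrl, with a median of 0.40 against 0.87 over all repair members. The share higher was 49.1% over all genes tested. Rad23b, a damage sensor subunit and by FPKM the most abundant repair member, had 429, 414, 416 and 429 CPM in M+NSPCC1, 381, 476, 404 and 439 in Model and 308, 288, 355 and 335 in Ctrl (0.40, SE 0.09).

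The transcription-coupled factors of this pathway rose by different amounts. Ercc6 rose by 0.87 (SE 0.19), with 30.6, 25.6, 29.8 and 32.8 CPM in M+NSPCC1, 40.5, 32.3, 36.1 and 38.1 in Model and 28.4, 17.3, 14.0 and 20.6 in Ctrl, where Ctrl 01 overlapped M+NSPCC1. Ercc8 rose by 0.50 (SE 0.19) and Ercc3, a helicase of the repair and transcription factor TFIIH, by 0.31 (SE 0.08). With DESeq2's size factors Ercc8 (adjusted p = 0.117) and Ercc3 (adjusted p = 0.117) no longer passed. The Ercc8 call was also lost without Model 02 (adjusted p = 0.051) and without Ctrl 03 (adjusted p = 0.057).

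End joining and single-strand break repair each held a gene that fell. Xrcc5, the Ku80 subunit that binds broken ends, rose by 0.55 (SE 0.10), with 62.1, 57.8, 66.0 and 64.5 CPM in M+NSPCC1, 57.1, 63.2, 47.2 and 63.6 in Model and 36.6, 41.6, 40.8 and 38.4 in Ctrl. Dclre1c, the Artemis nuclease that opens ends for joining, had 5.13, 6.12, 4.83 and 3.64 CPM in M+NSPCC1, 6.91, 6.21, 10.7 and 6.99 in Model and 22.8, 19.8, 17.6 and 12.95 in Ctrl (-1.25, SE 0.25, adjusted p = 0.000543 in Model against Ctrl). All 3 groups were separate, with M+NSPCC1 the lowest.

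Parp3, a DNA break sensor, fell the most of the repair members. It had 57.8, 57.6, 42.4 and 38.2 CPM in M+NSPCC1, 53.0, 35.8, 80.5 and 34.5 in Model and 217, 213, 241 and 212 in Ctrl. Model 03 was the highest Model library here, at 1.96 times the mean of the other 3, and Ctrl lay far above all others (log2 fold change -2.12, SE 0.25, adjusted p = 1.25e-05 in Model against Ctrl). Xrcc1, the scaffold of single-strand break repair, moved the other way, with 77.9, 82.6, 85.5 and 80.0 CPM in M+NSPCC1, 79.5, 96.3, 74.2 and 87.2 in Model and 48.3, 45.1, 44.7 and 49.8 in Ctrl (0.84, SE 0.09). Parp2, a break sensor like Parp3, rose by 0.24 (SE 0.09); its call was lost without Model 04 (adjusted p = 0.069), without Ctrl 04 (0.056) and with DESeq2's size factors (0.491).

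Members that matched by symbol only split evenly, with 4 higher, 4 lower and 2 not passed of 10 tested in Model against Ctrl (median -0.01). Over all genes tested 49.1% were higher and 41.4% lower, so this split was near the background. The 4 that fell were Parp genes, a group of ADP-ribosyltransferases of which several respond to interferon: Parp14 by 1.36 (SE 0.26), Parp10 by 1.25 (SE 0.14), Parp12 by 0.82 (SE 0.19) and Parp16 by 0.81 (SE 0.20). Parp14 had 52.9, 45.6, 36.4 and 35.2 CPM in M+NSPCC1, 54.5, 32.1, 81.0 and 41.3 in Model and 170, 125, 127 and 113 in Ctrl. Parp9 was at 0 in all M+NSPCC1 and Model libraries and had 5.64, 3.09, 4.51 and 0 CPM in Ctrl, so it was at least 48.3-fold lower in M+NSPCC1 and at least 46.3-fold lower in Model, by the limit of 3 counts over a group. Parp9 had 1 listed transcript row, with counts that were not whole, so its values may not stand for the whole gene.

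Higher among these were Rad21, the cohesin subunit, with 408, 408, 419 and 438 CPM in M+NSPCC1, 405, 417, 338 and 383 in Model and 265, 265, 256 and 259 in Ctrl (0.56, SE 0.07), and Ercc6l, a DNA translocase of mitotic chromosomes, with 26.9, 27.0, 32.9 and 31.1 CPM in M+NSPCC1, 25.3, 33.0, 15.97 and 27.0 in Model and 7.08, 5.96, 8.05 and 3.89 in Ctrl (2.02, SE 0.25). Poldip3 and Rad54l2 also rose, by 1.91 (SE 0.44) and 0.78 (SE 0.12). Parp11 and Parp8 did not pass in Model against Ctrl. Parp11 passed as higher in M+NSPCC1 against Ctrl (adjusted p = 0.0462), a call that was lost in 8 of 12 fits with 1 library left out (0.051 to 0.107). Parp8 passed as lower there (-2.71, SE 0.68, adjusted p = 0.00258), so that 5 were higher and 5 lower in M+NSPCC1 against Ctrl. This was again near the background of 50.1% higher and 43.1% lower over all genes tested.

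Set against each other as summed FPKM, replication shifted more than repair. Replication members summed to 893, 973, 1065 and 1072 FPKM in M+NSPCC1, 898, 942, 673 and 938 in Model and 373, 380, 401 and 383 in Ctrl. Repair members summed to 289, 301, 314 and 310 in M+NSPCC1, 289, 312, 252 and 309 in Model and 210, 210, 224 and 220 in Ctrl. The Ctrl libraries lay below all others in both sums, and mean replication FPKM was 2.6 times Ctrl in M+NSPCC1 and 2.25 times in Model, against 1.40 and 1.34 times for repair. Repair over replication was 0.304 ± 0.0154 in M+NSPCC1, 0.339 ± 0.0236 in Model and 0.562 ± 0.00935 in Ctrl (SD, n = 4 each), and the Ctrl values, 0.553 to 0.575, did not overlap the others, 0.289 to 0.374. The repair sum leans on abundant genes: mean FPKM in Model and Ctrl was 71.6 and 47.9 for Rad23b, and 12.5 and 48.3 for Parp3. By member, the quartiles of log2 fold change in Model against Ctrl were 0.50 and 2.05 for repair. For replication they were 0.74 and 1.46. No p-value is given for the sums, since the members were chosen with results of these data known.

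Within repair the roles differed. Mean summed FPKM in Model was 3.31 times Ctrl for homologous recombination, 2.2 for lesion bypass and checkpoint, 2.16 for mismatch repair and 2.08 for the Fanconi anaemia genes, beside 2.70 for origin licensing, 2.99 for nucleotide supply, 2.02 for the clamp group and 1.93 for the polymerases. Nucleotide excision stood at 1.29, end joining at 1.44 and single-strand break repair at 0.728 times Ctrl. The last fall was that of Parp3 alone, with a mean FPKM of 12.5 in Model and 48.3 in Ctrl. Xrcc1 (23.3 and 11.5) and Parp2 (17.1 and 12.8) were higher in Model. In end joining Xrcc5 was higher (15.2 in Model and 9.15 in Ctrl) and Dclre1c lower (1.01 and 2.14). Nucleotide excision held the largest part of repair FPKM, with 118 ± 0.882 in M+NSPCC1, 117 ± 9.64 in Model and 90.6 ± 5.09 in Ctrl (SD, n = 4 each).

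**Figure D4:**
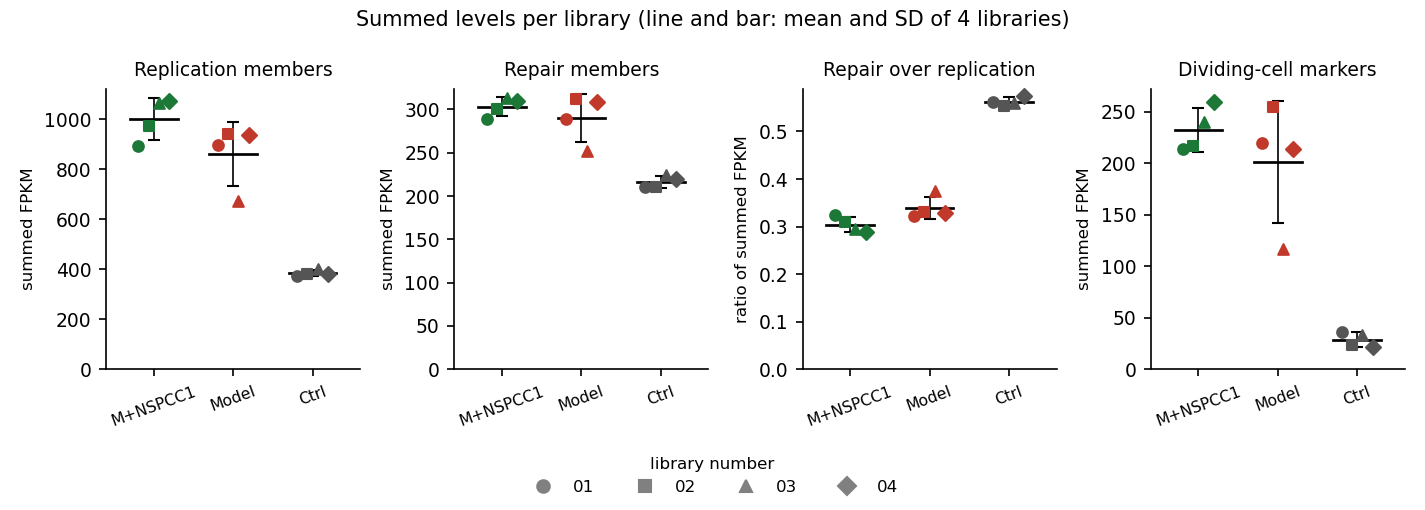
Summed FPKM per library (y axes, from 0) of replication members, repair members, their ratio, and 6 markers of dividing cells, for M+NSPCC1 (green), Model (red) and Ctrl (grey); symbols mark library numbers, lines the mean and bars the SD of 4 libraries. Ctrl lies below all others in the sums and above all others in the ratio, and Model 03 is the lowest Model library in each sum.

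Markers of dividing cells moved with the replication members. All 6 (Mki67, Top2a, Ccnb1, Cdk1, Birc5 and Aurkb) were higher in Model than in Ctrl, with log2 fold changes of 2.21 to 3.04, and their summed CPM was 1310 to 1570 in M+NSPCC1, 728 to 1610 in Model and 150 to 207 in Ctrl, with none at 0. By FPKM they reached 7.02 times Ctrl in Model, more than the 2.25 times of the replication members. The part of these cell markers in the changes of the members was not tested. Markers of other cells moved as well. Not all chosen markers were among the 7902 genes: 9 of 10 hair, 3 of 6 fibroblast, 2 of 5 T cell and 2 of 4 adipocyte markers were. So were 3 of 6 basal and 3 of 6 suprabasal keratinocyte markers, but 0 of 4 B cell markers. Over all genes tested 49.1% were higher and 41.4% lower in Model than in Ctrl. Hair matrix and shaft genes were higher in 9 of 9 (summed CPM 23800 to 41700 in M+NSPCC1, 32000 to 48400 in Model and 13.6 to 284 in Ctrl). Skeletal muscle genes were lower in 7 of 7 (7040 to 10500 in M+NSPCC1, 3260 to 9760 in Model and 53300 to 56000 in Ctrl). Macrophage genes were lower in 4 of 4 (314 to 592 in M+NSPCC1, 290 to 889 in Model and 1400 to 1940 in Ctrl), endothelial genes in 5 of 5 (197 to 268 in M+NSPCC1, 138 to 399 in Model and 714 to 898 in Ctrl) and fibroblast genes in 3 of 3 (4840 to 6280 in M+NSPCC1, 3390 to 8610 in Model and 9420 to 11800 in Ctrl). T cell genes (6.49 to 14.2 in M+NSPCC1, 3.06 to 15 in Model and 16.4 to 28.1 in Ctrl) and adipocyte genes (12.2 to 16.6 in M+NSPCC1, 7.78 to 21.5 in Model and 59.2 to 79.9 in Ctrl) were lower in 2 of 2 each. Summed keratinocyte genes were abundant in all groups, although the basal gene Itgb4 was at 0 in 1 M+NSPCC1 and 3 Model libraries: of 3 basal genes 2 were higher and 1 was lower (3140 to 5070 in M+NSPCC1, 3760 to 6210 in Model and 2490 to 3050 in Ctrl), and of 3 suprabasal genes 1 was higher and 2 were lower (2480 to 4030 in M+NSPCC1, 1930 to 4000 in Model and 5980 to 8230 in Ctrl).

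Genes of the same pathways outside the symbol rule gave similar counts, but were also chosen with earlier results known and are no independent support. Their lists held 30 replication and 44 repair genes, of which 27 and 24 were among the 7902 genes. Top2a is both in this replication list and among the markers of dividing cells above. Over all genes tested 49.1% were higher and 41.4% lower in Model than in Ctrl. Of 27 further replication genes 26 were higher in Model than in Ctrl and none was lower, with a median of 1.27. Ticrr, a factor for origin firing, rose by 3.01 (SE 0.24), Tk1, the S-phase thymidine kinase, by 2.38 (SE 0.18), and the E2F family members E2f2 and E2f8 by 2.95 (SE 0.23) and 1.88 (SE 0.22). E2f1 did not pass, with 26.2 ± 1.75 CPM in M+NSPCC1, 22.7 ± 3.87 in Model and 25.7 ± 1.02 in Ctrl (log2 fold change -0.18 in Model against Ctrl, SE 0.12, adjusted p = 0.182). Of 23 further repair genes tested 19 were higher, none was lower and 4 did not pass (Mre11a, Ogg1, Mdc1 and Rev1), with a median of 1.03. Eme1, a nuclease subunit that resolves recombination junctions, rose by 3.02 (SE 0.37), and Ddb1, a damage-binding protein of nucleotide excision, by 0.37 (SE 0.07). In M+NSPCC1 against Ctrl 26 of these replication genes (median 1.84) and 19 of these repair genes were higher, and against Model none passed. There were 2 repair genes lower against Ctrl, Ogg1 by 0.93 (adjusted p = 0.0135), a glycosylase for oxidised guanine, and Rev1 by 1.5 (adjusted p = 0.00846), a lesion bypass polymerase.

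M+NSPCC1 was set against Model to ask whether the extract changed the aged skin. No member passed edgeR's quasi-likelihood test, as no gene of the 7638 did (0% of genes passed; 502, or 6.57%, had an unadjusted p under 0.05, and 5 of the 79 members). DESeq2 called 74 genes (0.95%), among them 1 member, Dclre1a (adjusted p = 4.94e-06 by DESeq2), which edgeR's filter had left out and which was at 0 in every M+NSPCC1 library and in Model 01 and Model 03. The median log2 fold change was 0.18 for replication, with 38 of 40 above 0, and -0.01 for repair, with 13 of 29 above 0, against 51.5% of all genes above 0. Without Model 03 the replication median was 0.09, with 36 of 40 above 0, and the repair median -0.04. For 28 of the 40 replication members and 16 of the 29 repair members the 95% interval lay within a 1.5-fold change either way. This held for 4180 of all 7638 genes tested, so the repair share was near the background.

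The 5 replication members with the smallest p were Gins2, Rfc2, Lig1, Orc6 and Pcna, all higher in M+NSPCC1. Gins2, with the values given above, differed by 0.37 (95% interval 0.09 to 0.66; unadjusted p = 0.0141, adjusted p = 0.621 by edgeR; 0.123 to 1.0 over the alternatives), and M+NSPCC1 lay above Model in every library. Rfc2, a loader subunit, had 78.1, 90.2, 86.5 and 86.3 CPM in M+NSPCC1 and 71.8, 77.4, 64.4 and 79.9 in Model, a difference of 0.22 (0.04 to 0.40), which was 0.16 without Model 03. Lig1 differed by 0.29 (0.00 to 0.58), Orc6 by 0.21 (-0.02 to 0.44) and Pcna by 0.17 (-0.03 to 0.36), with overlapping libraries in each.

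Among the 5 repair members with the smallest p were Dclre1c, Rad51ap1, Ercc6 and Rad18. Dclre1c was lower in M+NSPCC1 by 0.64 (95% interval -1.19 to -0.10; adjusted p = 0.674 by edgeR), and by 0.44 without Model 03 (-0.95 to 0.06), with every M+NSPCC1 library below every Model library. Rad51ap1 differed by 0.36 (-0.06 to 0.77), Ercc6 by -0.31 (-0.71 to 0.10) and Rad18 by 0.22 (-0.16 to 0.60). Parp8, chosen after its values were seen, was the third member with groups that did not overlap: it had 0.550, 0.649, 0.729 and 0 CPM in M+NSPCC1 and 1.89, 1.11, 1.98 and 3.63 in Model (-2.14, 95% interval -3.61 to -0.67; adjusted p = 0.573). Groups that did not overlap were found in 4.19% of all genes in this comparison (1.3% higher, 2.89% lower in M+NSPCC1).

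**Figure D5:**
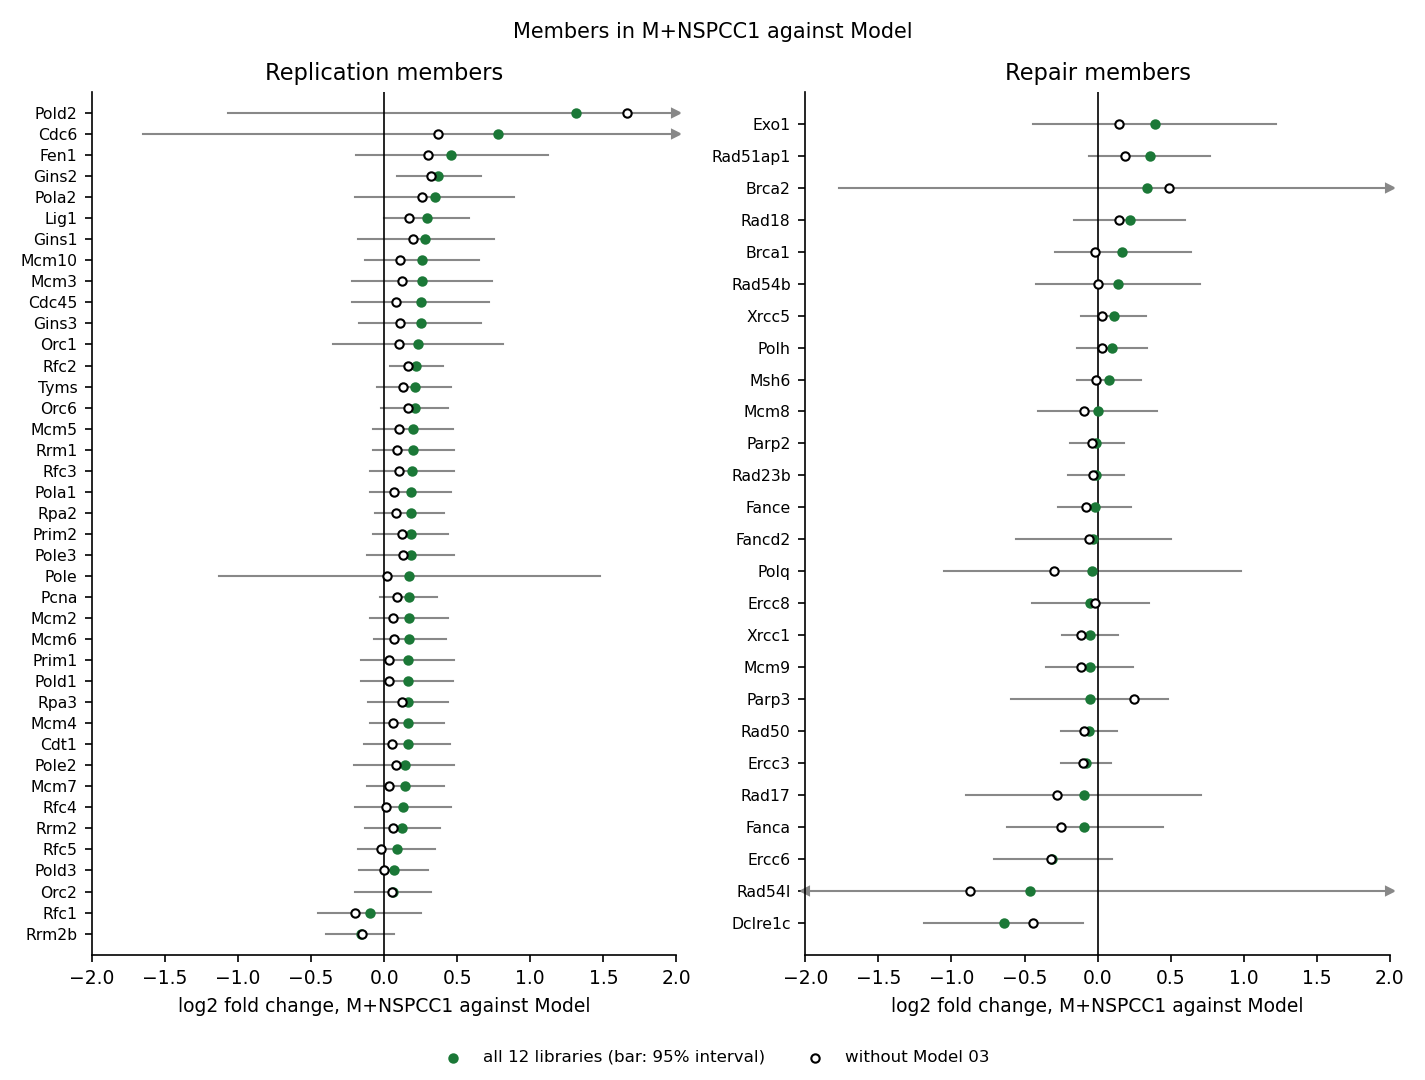
Log2 fold change in M+NSPCC1 against Model (x axis) of 40 replication members (left) and 26 repair members (right), with 95% intervals from all 12 libraries (green points, grey bars, arrows where a bar runs past the axis) and the value without Model 03 (open points). No member passed; 38 of 40 replication values lie above 0, and their median is 0.18 with Model 03 and 0.09 without it.

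Side by side against Ctrl, the members of M+NSPCC1 and Model gave close values. Mcm5 changed by 2.06 in M+NSPCC1 and 1.86 in Model, Rrm2 by 2.2 and 2.07, Rrm2b by -0.72 and -0.55, Brca1 by 2.69 and 2.52, Fanca by 3.07 and 3.16, and Parp3 by -2.17 and -2.12 on the log2 scale, with standard errors between 0.11 and 0.28. Each pair shares its Ctrl libraries, and the difference within each pair is the one tested in M+NSPCC1 against Model, which none passed.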

How the data were processed

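Total RNA of mouse skin was taken up in TRIzol and made into mRNA libraries, per the labels' protocols. Per the submitters' processing notes, the tools were RSEM 1.3.1, HISAT2 2.2.1 and DESeq2 1.34.0, with the genome build mm10 and no settings. The authors deposited an expected count and an FPKM value per transcript for each library. The deposited tables hold a selection of transcripts, which mostly differ from Ctrl. The deposited expected counts, not whole for 69.5% of genes (tolerance 0.011 per transcript), were summed per gene ID and rounded, and FPKM was summed per gene ID; totals were 9717338 to 10952623.

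All 12 libraries entered 1 model with TMM scaling and edgeR's default filter (edgeR 4.0.16 quasi-likelihood test in R 4.3.3, no covariate); an adjusted p is Benjamini-Hochberg over all 7638 genes tested, and a call is adjusted p under 0.05. Fold changes and standard errors are on the log2 scale. Alternatives were DESeq2 1.42.0 and its size factors, whole-library depth, other filters, the 8 libraries compared only, transcripts, a replicate block, each library left out, and limma 3.58.1 on log2(FPKM + 1) and log2(FPKM + 0.1). The fitting script was tested on simulated data. For M+NSPCC1 against Model it recovered 64 of 100 simulated 2-fold changes and 31 of 100 simulated 1.5-fold changes, with 4 false calls. Limits for genes at 0 use 3 counts over the group, cover counting error only and hold for the listed transcripts only.

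Roles, marker lists and pathway lists, and the genes in the set, were chosen with earlier results of these data known. Values per library are given for the members of each role with the highest mean FPKM and with the largest and smallest fold change against Ctrl, and in M+NSPCC1 against Model for the 5 replication and 5 repair members with the smallest p. Some members that this rule names are not reported here. Mcm5, Mcm10, Pole, Lig1, Brca1, Brca2 and the members at 0 were added to these after their values were seen. Other members are given by their fold change. Promoters came from RefSeq (GRCm38.p6), matched by symbol for 59 of 81 members.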

Additional observations from a re-analysis of the deposited data

Results flagged for a closer look

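Of 237 groups of 4 libraries, 1 for each member and group, 13 held a library whose gap to the others passed Dixon's 95% limit; chance gives about 1 in 20. In Model, library 03 was the low one for 3 members: Rad51ap1 with 10.52 CPM against 17.9 to 18.8 in the other libraries of the group, Msh6 with 67.5 against 87.1 to 89.9, and Poldip3 with 31.2 against 52.0 to 55.6. In M+NSPCC1, Rad54l had 1.42 CPM in library 04 against 4.22 to 4.45, and Parp12 had 50.8 in library 01 against 40.5 to 41.5.

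In Ctrl, 8 members had such a library. Library 03 was high for Parp3 (241 CPM against 212 to 217) and Rpa3 (25.01 against 18.1 to 19.1) and low for Orc6 (24.8 against 28.5 to 28.9). Library 01 was high for Rfc3 (19.0 against 15.3 to 15.8) and low for Orc2 (21.0 against 27.1 to 27.8). Library 02 was high for Rfc5 (24.4 against 20.7 to 21.1) and low for Fen1 (4.86 against 10.51 to 11.6). Cdc6 had 1.51 CPM in library 04 and 0 in the others.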

How the results depend on the processing

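No member changed sign against Ctrl under any alternative run. In Model against Ctrl the replication median was 0.98 with DESeq2's size factors, 0.99 with DESeq2 and 1.34 with whole-library depth, and the repair median was 0.70 with either DESeq2 setting, 1.05 with whole-library depth and 0.69 with limma on log2(FPKM + 1). In M+NSPCC1 against Ctrl the replication median was 1.18 with DESeq2's size factors and with DESeq2, 1.55 with whole-library depth, 1.51 with limma on log2(FPKM + 0.1) and 1.25 over members with whole counts, a choice made after seeing the data. The repair median there was 0.78 with the size factors, 0.74 with DESeq2, 1.16 with whole-library depth, and 0.72 and 1.10 with limma on log2(FPKM + 1) and log2(FPKM + 0.1). Counted as transcripts, 5 repair entries were lower in each of these comparisons, among them a pair each from Parp3 and Dclre1c in Model against Ctrl.

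In M+NSPCC1 against Model, DESeq2 called 16 genes higher and 58 lower, with 1 repair member lower, and the fit of the 8 libraries alone called 1 higher and 1 lower. With 1 library left out, 0 to 1 genes were higher and 0 to 3 lower (1 and 3 without M+NSPCC1 01, 1 and 1 without Model 03), and no member passed; the replication median was 0.09 to 0.25 and the repair median -0.04 to 0.06. In Model against Ctrl leaving out a library gave replication medians of 1.11 to 1.25 with 37 to 39 higher, and repair medians of 0.83 to 0.93 with 24 to 25 higher. In M+NSPCC1 against Ctrl these were 1.29 to 1.40 with 38 to 39 higher, and 0.88 to 0.99 with 23 to 26 higher and 3 to 4 lower.

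With DESeq2's size factors Cdc6, Ercc3, Ercc8, Parp2, Pole3 and Rfc1 lost their call in Model against Ctrl, and Ercc3, Ercc6, Ercc8, Mcm9, Parp11, Parp2 and Rfc1 in M+NSPCC1 against Ctrl; whole-library depth lost Parp16 there (adjusted p = 0.0553). With 1 library left out Parp2, Ercc8 and Rfc1 lost their call in M+NSPCC1 against Ctrl in 3, 7 and 4 of 12 fits. The causes were not tested. Libraries with the same number did not pair (1 of 12 correlations over 0.1, range -0.162 to 0.119; 2 of 12 libraries matched their own number best). With the replicate block 3654 genes were higher and 3169 lower in Model against Ctrl, 38 and 1 of the replication members and 24 and 3 of the repair members; Rad54l (adjusted p = 0.0517) and Pold2 (0.0716) lost their call, as did Brca2 (0.0696) and Parp11 (0.0706) in M+NSPCC1 against Ctrl. Cdc6, Pold2, Rad54l and Brca2 had libraries at or near 0 beside others of the same group with counts.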
